A study of Mus musculus with 12 samples.

Results

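The programme that makes interneurons in the ventral telencephalon was followed through 9 genes: the transcription factors Sp8, Sp9, Dlx1, Dlx2, Dlx5 and Dlx6, the receptor Prokr2, and Gad1 and Gad2, which encode the enzymes that make GABA. They were chosen because Sp8 and Prokr2 had been seen among the probes with the lowest ratios in APP_WT versus WT neurospheres, and the question was whether the rest of the programme was lower too. The probes were found as all non-control probes whose RefSeq identifier belongs to one of the 9 genes, which gave 10 probes of 55681 on the array, 2 of them for Sp8. All 10 were among the 29361 probes taken as expressed, which stood for 14330 named genes. Because Sp8 and Prokr2 were selected on APP_WT versus WT, their values in that comparison are a description with no test.

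Neurospheres, clusters in which neural stem and progenitor cells grow in suspension, came from the telencephalon of C57BL/6 mouse embryos at day 13, either wild type (WT) or carrying the APPswe and PS1dE9 transgenes, which are used to model familial Alzheimer's disease, and all were differentiated on a coated surface without growth factors for 7 days. Transgenic neurospheres were left untreated (APP_WT) or received 1 µM bradykinin (BK_APP), which activates the B2 kinin receptor, or 1 µM HOE-140 (HOE_APP), which blocks it, on days 0, 3 and 6. Each comparison (APP_WT versus WT, BK_APP versus APP_WT, HOE_APP versus APP_WT) had 4 2-color arrays, each with 1 replicate of both conditions, and the dyes were swapped on 2 of the 4. The methods call the replicates independent biological replicates, the sources used here give neither pooling of embryos nor the promoter of the transgenes, and WT neurospheres were not given either drug. Labels of both channels of the HOE_APP arrays name the same treatment, so the direction of every HOE_APP value below is likely only, and the other reading would turn the sign of all of them.

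In the embryonic forebrain, GABAergic interneurons arise from the ganglionic eminences, swellings of the ventral telencephalon, and migrate from there to the cortex and the olfactory bulb. DLX homeodomain factors are switched on as progenitors commit to this fate, and they act upstream of the GAD genes. SP8 and SP9 are related zinc finger factors of the lateral and caudal eminences and of the neuroblasts that supply the olfactory bulb, and PROKR2 is a G protein-coupled receptor for prokineticin 2 that these neuroblasts need to reach the bulb.

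The factors of the programme were lower in APP_WT than in WT, while both GAD genes were higher on average. Among the 7 probes that were tested, limma's moderated test called 5 lower (Sp9, Dlx1, Dlx2, Dlx5 and Dlx6) and 2 higher (Gad1 and Gad2) at an adjusted p below 0.05. Over 12 other settings of the processing, the calls of Gad1 and Gad2 were each lost in 5, that of Sp9 in 3 and that of Dlx6 in 6. Those of Dlx1, Dlx2 and Dlx5 were kept in all. Of all 29361 probes, 18.5% were called in this comparison, 7% lower and 11.6% higher. On a level scale, the 4 APP_WT values lay below the 4 WT values without overlap for 8 of the 10 probes, all but those of Gad1 and Gad2, and 4.08% of all probes were lower without overlap. Of these 8 probes, 3 are those of Sp8 and Prokr2, for which this follows from their selection. These are bulk samples, in which fewer cells of a type and less RNA per cell cannot be told apart.

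Prokr2 and the bright probe of Sp8 had similar ratios. The log2 ratios of APP_WT over WT for Prokr2 were −0.95, −0.75, −0.49 and −1.04 on replicates 1 to 4. Its fitted mean was −0.81 ± 0.09 (SE, n = 4), a level 1.75-fold lower in APP_WT. Here and below, the SE of a mean ratio comes from the model over all 12 arrays, with dye effects removed. It is not the spread of the 4 ratios, and n counts the arrays of the comparison. The bright Sp8 probe (A_66_P138898) gave −0.88, −0.63, −0.56 and −1.14, with a mean of −0.80 ± 0.08 (SE, n = 4), 1.74-fold lower. Counted from the lowest of the 29361 probes, Prokr2 had rank 5 and this Sp8 probe rank 6. For Prokr2 and this Sp8 probe replicate 4 was the lowest and replicate 3 the highest of the arrays.

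The second Sp8 probe (A_55_P2083806) gave a smaller difference. Its ratios were −0.28, −0.24, −0.24 and −0.19, with a mean of −0.24 ± 0.05 (SE, n = 4). Its raw median signals on these arrays were between 95.5 and 217.5 scanner units, where those of the bright probe were between 2454 and 9880. The background correction adds 50 units, which shrinks ratios of dim probes, and with the signals processed by the scanner software the mean of the dim probe was −0.56. Both probes carry the same RefSeq identifier, and the files used here do not give the probe sequences. Sp9, the closest relative of Sp8, gave −0.39, −0.22, −0.02 and −0.39, with replicate 3 close to 0. Its mean was −0.26 ± 0.06 (SE, n = 4, limma adjusted p = 0.0192), a 1.19-fold lower level.

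Dlx1 fell furthest among the genes that were tested. Its ratios were −0.60, −0.68, −0.37 and −0.71, and the mean was −0.59 ± 0.06 (SE, n = 4, limma adjusted p = 0.000105), a 1.5-fold lower level and rank 25 from the lowest of all probes. Dlx2, its neighbour on chromosome 2 with no coding gene between them, gave −0.35, −0.24, −0.34 and −0.67, with a mean of −0.40 ± 0.06 (SE, n = 4, limma adjusted p = 0.00138). All 4 arrays were below 0 for both genes of the pair. Dlx5 and Dlx6, which form a second neighbouring pair on chromosome 6, were lower as well. Dlx5 gave −0.39, −0.53, −0.33 and −0.50, with a mean of −0.44 ± 0.07 (SE, n = 4, limma adjusted p = 0.00115). For Dlx6, whose raw signals on these arrays did not exceed 237 units, the ratios were −0.42, −0.12, −0.30 and −0.24, with a mean of −0.27 ± 0.07 (SE, n = 4, limma adjusted p = 0.0158).

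**Figure D1:**
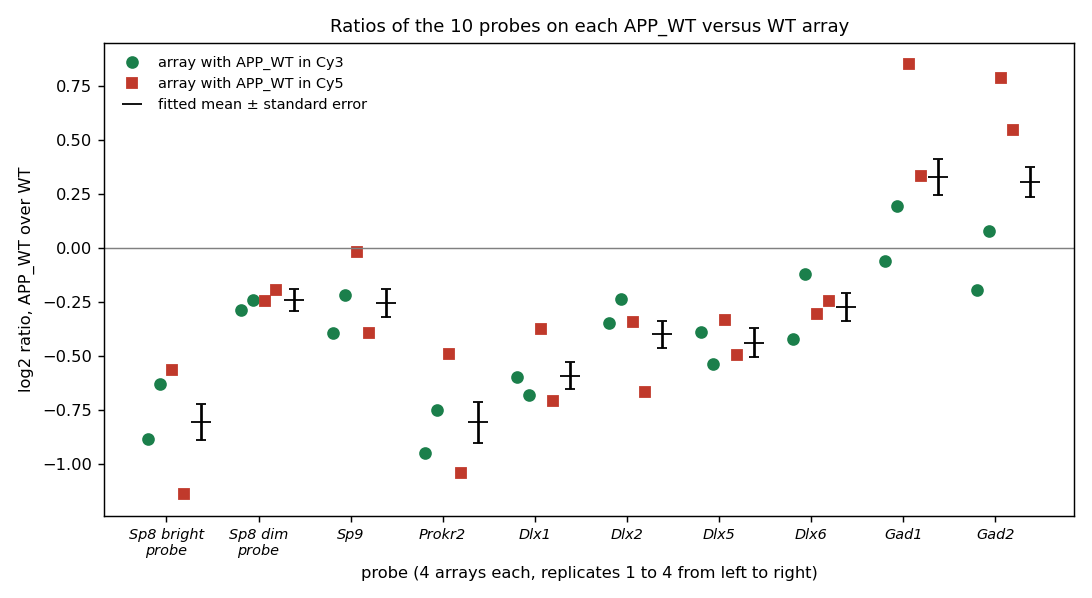
Log2 ratio of APP_WT over WT (vertical axis) on each of the 4 arrays for the 10 probes (horizontal axis), with circles for arrays that carried APP_WT in Cy3 and squares for those that carried it in Cy5, and the fitted mean ± SE in black. The points of Sp8, Sp9, Prokr2 and the Dlx genes all lie below 0, down to −1.14 for the bright Sp8 probe, while Gad1 and Gad2 reach 0.85 and 0.79 on replicate 3 and are near 0 on the Cy3 arrays.

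Gad1 and Gad2 went the other way and with more spread. The Gad1 ratios were −0.06, 0.20, 0.85 and 0.33, with a mean of 0.33 ± 0.08 (SE, n = 4, limma adjusted p = 0.0185), and those of Gad2 were −0.20, 0.08, 0.79 and 0.55, with a mean of 0.30 ± 0.07 (SE, n = 4, limma adjusted p = 0.0113). The SD of the 4 ratios was 0.38 for Gad1 and 0.44 for Gad2, wider than these SEs from the model convey. The levels of APP_WT and WT overlapped for both genes. Replicate 1 was below 0 for both, and the arrays with APP_WT in Cy5 averaged 0.59 for Gad1 and 0.67 for Gad2, against 0.07 and −0.06 on the arrays with APP_WT in Cy3. Without replicate 3, the means were 0.20 for Gad1 (limma adjusted p = 0.125) and 0.24 for Gad2 (limma adjusted p = 0.0817), and without replicate 2 they were 0.27 (limma adjusted p = 0.106) and 0.24 (limma adjusted p = 0.0771). With median centring in place of loess, they were 0.18 (limma adjusted p = 0.0824) and 0.18 (limma adjusted p = 0.102), so that neither gene was called. Nor did SAM together with rank products, the criterion of the study's methods, call either gene, while it called Sp9 and the 4 Dlx genes. Over all 29361 probes this criterion called 2741 in APP_WT versus WT.

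The calls of Sp9 and Dlx6 were likewise lost on leaving out single arrays. Without replicate 1 or replicate 4, Sp9 gave −0.21 (limma adjusted p = 0.0888) or −0.16 (limma adjusted p = 0.125). Dlx6 gave −0.20 without replicate 1 (limma adjusted p = 0.0897), −0.26 without replicate 3 (limma adjusted p = 0.0758) and −0.29 without replicate 4 (limma adjusted p = 0.0526). Dlx1, Dlx2 and Dlx5 kept their calls in each of these fits. Fold changes over the 12 other settings ranged from −0.74 to −0.51 for Dlx1, from −0.56 to −0.32 for Dlx2 and from −0.55 to −0.40 for Dlx5.

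RefSeq promoter windows of the members that had one are shown here for reading beside these values, with build GRCm38.p6 and only the 250 bases before the annotated start. Of the 9 genes, 7 had an entry, Sp8 with 3 start sites, of which the middle one is shown. Capitals mark GGGCGG, the core of the GC box to which SP factors bind, TATAAA, the letters of the TATA box, and TAATTA, a homeodomain core. Matches are marked on either strand and at any distance from the start.
Sp8, chr12:118846983-118847232, plus strand: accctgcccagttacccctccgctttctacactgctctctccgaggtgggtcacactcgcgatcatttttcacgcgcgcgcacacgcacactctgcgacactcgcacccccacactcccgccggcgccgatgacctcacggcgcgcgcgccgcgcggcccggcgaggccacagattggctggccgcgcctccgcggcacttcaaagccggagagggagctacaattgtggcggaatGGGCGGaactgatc
Sp9, chr2:73271676-73271925, plus strand: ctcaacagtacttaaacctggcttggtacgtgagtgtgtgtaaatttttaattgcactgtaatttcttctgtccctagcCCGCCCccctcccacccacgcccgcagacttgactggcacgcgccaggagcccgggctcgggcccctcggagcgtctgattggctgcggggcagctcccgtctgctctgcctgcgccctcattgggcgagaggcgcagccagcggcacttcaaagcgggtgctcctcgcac
Prokr2, chr2:132385448-132385697, minus strand: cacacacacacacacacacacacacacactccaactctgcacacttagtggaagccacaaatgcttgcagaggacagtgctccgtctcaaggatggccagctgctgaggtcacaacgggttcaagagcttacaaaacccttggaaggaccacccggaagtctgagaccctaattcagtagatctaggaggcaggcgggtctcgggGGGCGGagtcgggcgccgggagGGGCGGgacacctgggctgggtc
Dlx1, chr2:71529195-71529444, plus strand: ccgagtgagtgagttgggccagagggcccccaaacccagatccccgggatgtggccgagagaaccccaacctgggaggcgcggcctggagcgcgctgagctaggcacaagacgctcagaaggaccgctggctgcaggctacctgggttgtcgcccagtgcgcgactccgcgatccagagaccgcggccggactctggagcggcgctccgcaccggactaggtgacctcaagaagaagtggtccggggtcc
Dlx2, chr2:71546755-71547004, minus strand: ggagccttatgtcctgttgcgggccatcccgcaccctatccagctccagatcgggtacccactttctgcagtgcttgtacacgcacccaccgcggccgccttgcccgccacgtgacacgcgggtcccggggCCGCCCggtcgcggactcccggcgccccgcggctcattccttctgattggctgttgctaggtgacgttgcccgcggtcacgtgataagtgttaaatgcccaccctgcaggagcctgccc
Gad1, chr2:70561879-70562128, plus strand: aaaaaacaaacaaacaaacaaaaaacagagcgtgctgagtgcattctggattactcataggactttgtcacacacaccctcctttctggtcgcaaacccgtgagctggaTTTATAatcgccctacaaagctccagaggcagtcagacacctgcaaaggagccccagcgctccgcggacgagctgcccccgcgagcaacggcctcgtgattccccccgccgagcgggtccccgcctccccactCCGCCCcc
Gad2, chr2:22622077-22622326, plus strand: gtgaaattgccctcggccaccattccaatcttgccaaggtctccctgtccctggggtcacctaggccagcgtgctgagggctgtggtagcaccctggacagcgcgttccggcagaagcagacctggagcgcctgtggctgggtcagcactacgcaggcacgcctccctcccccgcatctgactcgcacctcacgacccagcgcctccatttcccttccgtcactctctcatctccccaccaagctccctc
The GC box core was in 5 of the 9 member windows (Sp8, Sp9, Prokr2, Dlx2 and Gad1) and in 32.7% of 32851 windows of the same length over all genes. TATAAA was in 2 of the 9, that of Gad1 and that of an Sp8 start site not shown, and in 12.4% of all windows. TAATTA was in 1 of the 9, at another start site of Sp8, and in 4.84% of all windows. Dlx1 and Gad2 held none of these letters within the window. These matches are a description of sequence and not evidence of binding.

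**Figure D2:**
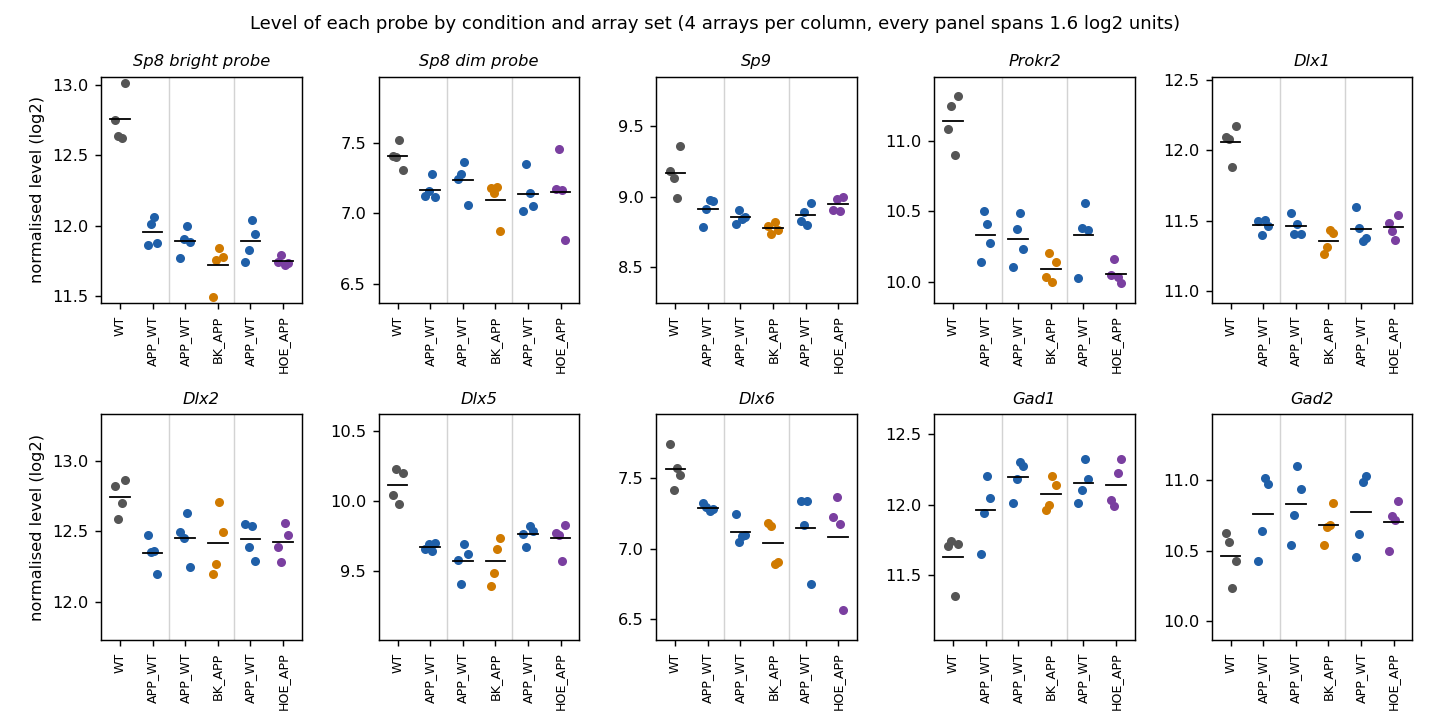
Normalised level (log2 scale, vertical axis) of each of the 10 probes in every array channel, in columns by condition and grouped by comparison, with a bar at the mean of 4. The WT points of the bright Sp8 probe, Prokr2 and Dlx1 stand above all points of the transgenic conditions, whereas the WT points of Gad1 and Gad2 lie at the low end of their panels.

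Levels of the untreated transgenic neurospheres could be compared over 3 sets of arrays, on a log2 scale after normalization over all 12 arrays. The bright Sp8 probe was at 12.76 ± 0.18 (SD, n = 4) in WT and at 11.95 ± 0.10, 11.89 ± 0.09 and 11.89 ± 0.13 (SD, n = 4 each) in the APP_WT samples of the APP_WT versus WT, BK_APP and HOE_APP arrays. Prokr2 was at 11.14 ± 0.18 in WT and at 10.33 ± 0.16, 10.30 ± 0.17 and 10.33 ± 0.22 in the same sets (SD, n = 4 each). Dlx1 was at 12.06 ± 0.12 in WT and at 11.47 ± 0.05, 11.46 ± 0.07 and 11.44 ± 0.11 in these sets (SD, n = 4 each). For these probes the APP_WT sets differed from each other by less than the spread within a set. This did not hold for every probe. Dlx5 was at 9.68 ± 0.03, 9.58 ± 0.12 and 9.76 ± 0.06 in the APP_WT sets (SD, n = 4 each). Dlx6 was at 7.29 ± 0.02, 7.12 ± 0.09 and 7.15 ± 0.28 (SD, n = 4 each). The comparisons share their untreated transgenic samples by design, so closeness of the sets is not independent replication. Gad1 was at 11.63 ± 0.19 in WT and at 11.96 ± 0.24, 12.20 ± 0.13 and 12.16 ± 0.13 in APP_WT, and Gad2 was at 10.46 ± 0.17 and at 10.76 ± 0.28, 10.83 ± 0.24 and 10.78 ± 0.28 (SD, n = 4 each). WT was measured on one slide, together with the first set of APP_WT, and the other sets on another, so that levels across slides include any difference between slides.

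Bradykinin was followed by small negative ratios that did not pass the test. Of the 10 probes none was called in BK_APP versus APP_WT, and none of the 29361 probes was (0% called by limma, 4.47% with an unadjusted p below 0.05, against 2 of the 10 member probes). All 10 fold changes were below 0, with limma adjusted p between 0.967 and 0.998, and 52.6% of all probes were below 0. In the gene lists described below, 15 of 15 neuron genes were below 0 as well. So were 15 of 18 GABA genes, 13 of 15 interneuron subtype markers, 15 of 19 lateral and caudal eminence factors and 10 of 12 astrocyte genes. Fewer were below 0 in other lists, with 7 of 15 dorsal glutamatergic genes, 4 of 11 radial glia genes, 3 of 13 microglial genes and 2 of 14 ventral progenitor factors. In 6 of the 10 probes all 4 arrays were below 0, as in 4.62% of all probes. The bright Sp8 probe gave −0.28, −0.15, −0.15 and −0.11 (mean −0.17, 95% interval −0.36 to 0.01) and its dim probe −0.06, −0.14, −0.18 and −0.18 (mean −0.14, 95% interval −0.25 to −0.02), the last of these on an array where BK_APP was not well above background. Prokr2 gave −0.07, −0.17, −0.49 and −0.09, with replicate 3 well below the others (mean −0.21, 95% interval −0.41 to −0.00048). For Gad1 the 4 ratios lay between −0.19 and −0.05, and for Gad2 between −0.42 and −0.01, with means of −0.12 and −0.15. Sp9 was between −0.17 and −0.02, with a mean of −0.08. The Dlx genes had arrays on both sides of 0, with means of −0.11 for Dlx1, −0.04 for Dlx2, −0.01 for Dlx5 and −0.08 for Dlx6, and those of Dlx2 and Dlx5 turned above 0 with median centring.

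Blocking the B2 receptor gave no call either. Of the 10 probes, 0 were called in HOE_APP versus APP_WT and 1, that of Prokr2, had an unadjusted p below 0.05 (0% of all probes were called by limma and 5.03% had an unadjusted p below 0.05). The Prokr2 ratios were 0.02, −0.22, −0.52 and −0.38, with a mean of −0.28 (95% interval −0.48 to −0.07, limma adjusted p = 0.924). SAM together with rank products, at an unadjusted p of 0.05, called Prokr2 here and no other member, and 488 of all 29361 probes. The bright Sp8 probe had ratios of 0.00, −0.04, −0.32 and −0.20 and a mean of −0.14 (95% interval −0.32 to 0.04). Its dim probe averaged 0.01, with arrays from −0.24 to 0.15. Sp9 was above 0 on all 4 arrays, from 0.04 to 0.10 with a mean of 0.08, as were 5.68% of all probes. Means of the Dlx genes were 0.01 for Dlx1, −0.02 for Dlx2, −0.03 for Dlx5 and −0.06 for Dlx6, which was not well above background in HOE_APP on replicate 4, and those of Gad1 and Gad2 were −0.01 and −0.07.

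The treatments were also compared with each other in the same model. The difference BK_APP minus HOE_APP was called for 0 of the 10 member probes and 0% of all probes, and 2.5% of all probes but none of the members had an unadjusted p below 0.05. For Sp9 it was −0.15 (95% interval −0.36 to 0.05), and over the 10 probes the intervals reached from −0.36 to 0.36. With the HOE_APP arrays turned to the other reading of their labels, the difference was 0.00091 for Sp9, −0.31 for the bright Sp8 probe and −0.48 for Prokr2 (limma adjusted p of 0.999, 0.614 and 0.603), so that which gene differed most between the drugs depends on that direction. Taken within pairs of the same replicate number, Sp9 gave −0.09, −0.27, −0.13 and −0.13 (limma adjusted p = 0.546), and again 0 of the 10 probes were called. The comparisons with APP_WT share their untreated transgenic samples with one another by design, and the main model takes their arrays as independent. For Sp9 the SE of the difference was 0.09 in that model and 0.06 within pairs.

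**Figure D3:**
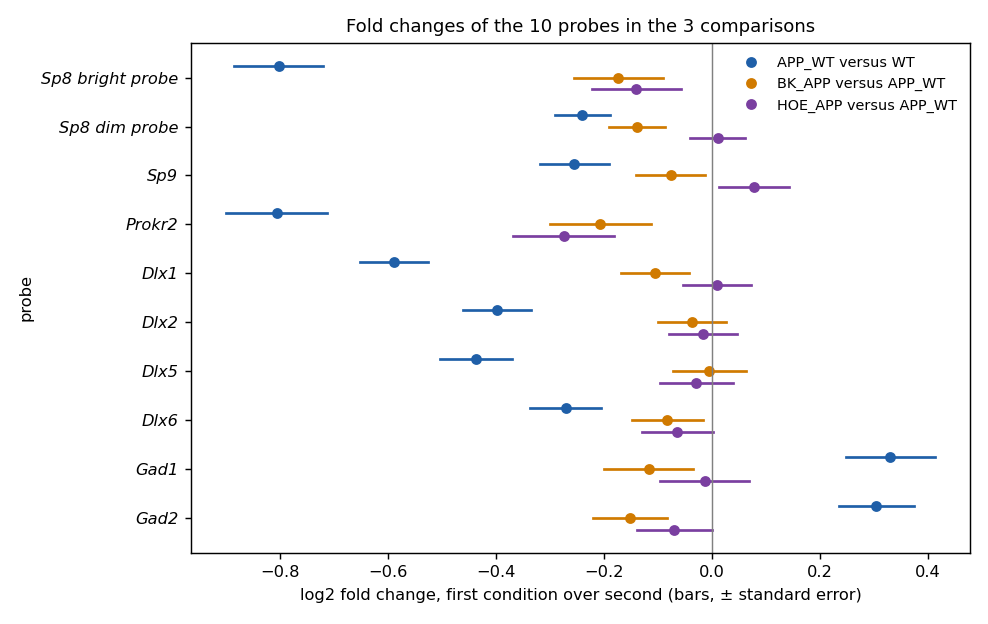
Log2 fold change ± SE (horizontal axis) of the 10 probes (vertical axis) in the 3 comparisons, each as the first condition over the second. The values of APP_WT versus WT run from −0.81 for Prokr2 to 0.33 for Gad1, and those of both treatments lie between −0.28 and 0.08.

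Beyond the 9 genes, 107 other genes of the ventral programme were held in 6 lists, of which 94 were expressed. In APP_WT versus WT 23 of these were called lower and 20 higher, together 45.7%, beside 18.5% of all probes, and their median log2 fold change was 0.02, with 0.00 over all probes. The share of the lists counts each gene by its brightest probe, whereas that of all probes counts every expressed probe, dim ones included. These shares are therefore not like for like, and enrichment of calls in the lists was not tested. With other scalings the lists had 26 to 31 genes lower and 15 to 18 higher, while over all probes the share of calls that were lower went from 37.7% to between 63.6% and 67.4%. In BK_APP and HOE_APP none of the 94 was called. A gene was represented by its brightest expressed probe. Hes5 and Olig2 also stand in lists of other cells.

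Among factors of the lateral and caudal ganglionic eminences, 8 of the 19 expressed were lower and 3 higher, with a median of −0.12. Etv1, an ETS factor of olfactory bulb interneurons, fell by 0.49, Tshz1 by 0.46 and Nr2f1 by 0.31 on the log2 scale, with limma adjusted p of 0.000427, 0.00112 and 0.000999. With median centring Nr2f1 was at −0.49. The second Etv1 probe gave −0.18 and was not called. Dlx6os1, the antisense RNA of the Dlx5 and Dlx6 locus, had ratios of −0.58, −0.65, −0.01 and −0.41 and a mean of −0.41 (limma adjusted p = 0.00181), with replicate 3 near 0. Signal of the sense genes of this locus on its probe was not tested. Meis2, a homeodomain factor of the lateral eminence, gave −0.59, −0.57, 0.08 and −0.46, with a mean of −0.39 (limma adjusted p = 0.0133), and without replicate 4 it was not called (-0.25, limma adjusted p = 0.0949). Rarb, the retinoic acid receptor of the striatal lineage, was higher, at 0.91 (limma adjusted p = 1.32e-05). Isl1, a factor of striatal projection neurons, was not among the expressed probes.

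Ventral progenitor and patterning factors had 3 genes lower and 1 higher of 14. Hes5, an effector of Notch, fell by 0.63 (limma adjusted p = 5.95e-05) and Gsx2, the homeodomain factor of the lateral eminence, by 0.37 (limma adjusted p = 0.00085) on the log2 scale. Olig2 was at −0.21 (limma adjusted p = 0.037), a call lost when any of replicates 1, 2 or 3 was left out and in the fit with a replicate block (limma adjusted p = 0.0625). With median centring it was at −0.35. Vax1 was higher, at 0.35 (limma adjusted p = 0.00177), although in WT it was well above background on 1 array only. With the processed signals Gsx2 was at −0.98 and Vax1 at 0.83. Nkx2-1 was at 0.19 (limma adjusted p = 0.0687), and was called without replicate 1 (0.27, limma adjusted p = 0.0175) and without replicate 3 (0.26, limma adjusted p = 0.0402). Of 10 expressed factors of medial eminence interneurons, 3 were lower and none higher. Among these were Zeb2 at −0.31 and Satb1 at −0.23, with limma adjusted p of 0.0065 and 0.0139. Without replicate 4, Zeb2 was at −0.24 (limma adjusted p = 0.054) and Satb1 at −0.19 (limma adjusted p = 0.0878), and without replicate 2 Satb1 was at −0.21 (limma adjusted p = 0.0707). Lhx6, which marks medial eminence interneurons, had ratios of −0.15, −0.07, 0.64 and 0.10 on its brightest probe (mean 0.13, limma adjusted p = 0.325, −0.01 with median centring), and its other expressed probe gave 0.72 and was called.

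Beside Gad1 and Gad2, of 18 genes for GABA synthesis, transport and reception, 6 were higher and 2 lower. The receptor subunit genes Gabrd, Gabrb1 and Gabrb2 rose by 0.49, 0.44 and 0.31, with limma adjusted p of 8.65e-05, 0.000211 and 0.000873. The 2 that fell, named after their values were seen, were the receptor subunit gene Gabra2 at −0.30 and the GABA transporter gene Slc6a11 at −0.31, with limma adjusted p of 0.00845 and 0.0129. The vesicular GABA transporter Slc32a1 gave −0.25, 0.04, 0.54 and 0.09 (mean 0.11, limma adjusted p = 0.402). With median centring it was below 0, and Gabrb2 was at 0.20 and no longer called (limma adjusted p = 0.0682). As with Gad1 and Gad2, the highest of the 4 arrays was replicate 3 for Slc32a1 and Lhx6.

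Of 15 expressed markers of interneuron subtypes, 8 were higher and 1 lower, with a median of 0.24. Of the 8, 3 were barely detected in WT: Crhbp was well above background on 0 of the WT arrays, and Ndnf and Reln on 1 each. Npy, the neuropeptide Y gene, gave 1.18, 1.04, 1.45 and 1.51 in APP_WT over WT, a mean of 1.29 ± 0.05 (SE, n = 4, limma adjusted p = 1.81e-07) and a 2.45-fold higher level. Sst, the somatostatin gene, gave 0.52, 0.66, 1.13 and 0.92, with a mean of 0.81 ± 0.05 (SE, n = 4, limma adjusted p = 3.73e-06). Penk and Cort were higher by 0.54 and 0.37, with limma adjusted p of 0.000197 and 0.00058. Calb2, the calretinin gene, which marks a large class of olfactory bulb interneurons, was the one that fell, with ratios of −0.34, −0.24, −0.32 and −0.34 and a mean of −0.31 (limma adjusted p = 0.00416), or −0.52 with the processed signals. Th, the enzyme of dopaminergic bulb interneurons, was at 0.01 (limma adjusted p = 0.961) and at −0.06 with median centring.

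For the pathway of Prokr2 and the migration of olfactory bulb neuroblasts, 6 of 18 expressed genes were lower and 2 higher. Dcx, the microtubule protein of migrating neuroblasts, gave −0.26, −0.73, −0.40 and −0.78, with a mean of −0.54 ± 0.09 (SE, n = 4, limma adjusted p = 0.00231), and all 3 of its probes were called lower. St8sia4, which makes the polysialic acid of neuroblasts, was at −0.48, Robo2, a receptor for SLIT proteins, at −0.46 and Cd24a at −0.30, with limma adjusted p of 0.000314, 0.0008 and 0.00377. With median centring Cd24a was at −0.48. Prok2, the ligand of PROKR2, was at 0.16 (limma adjusted p = 0.109), and Prok1 and Prokr1 were not among the expressed probes.

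**Figure D4:**
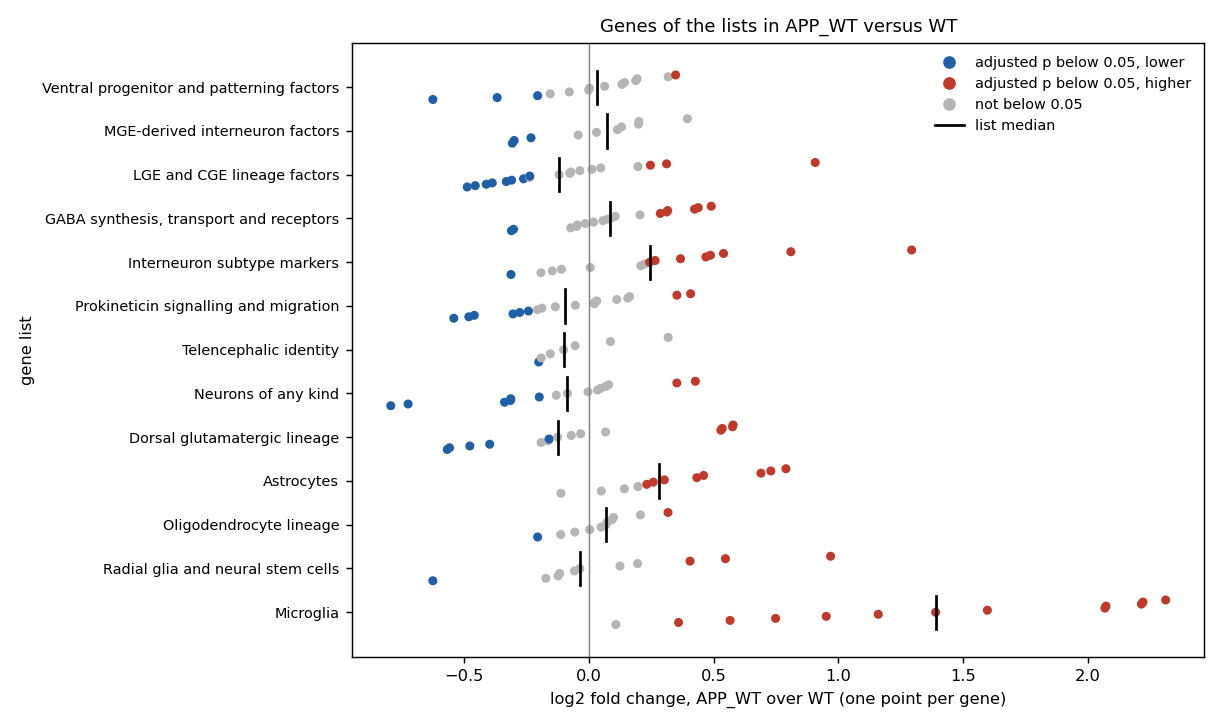
Log2 fold change of APP_WT over WT (horizontal axis) for every expressed gene of the lists (vertical axis), with blue points for genes called lower, red for genes called higher, grey for the rest and a black line at the list median. Medians of the ventral lists lie between −0.12 and 0.24, and that of the microglial list is 1.39.

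Markers of other cells moved in the same comparison, and their part in the results above was not tested. Of 13 expressed microglial genes 12 were higher in APP_WT and none lower, with a median of 1.39. Cx3cr1 and Aif1 were at 2.31 and 2.21, and Cx3cr1 at 3.5 with the processed signals. The summed intensity of the 12 microglial markers measured in all channels was 9728 to 11929 in WT and 13720 to 17569 in APP_WT of the same arrays. All 13 were well above background on at least 1 WT array, and 6 of them on all 4. Of 12 astrocyte genes 8 were higher and none lower (median 0.28), with Aqp4 at 0.73 and Gfap at 0.69. Neuron genes were divided, with 6 lower and 2 higher of 15 (median −0.09), Nefm at −0.79 and Nefl at −0.73 among the former, values up to 0.43 among the latter, and a summed intensity of 150462 to 172729 in WT against 142316 to 157846 in APP_WT. The dorsal glutamatergic list had 5 lower and 4 higher of 15 (median −0.13), with Bhlhe22 at −0.57 and Neurod2 at −0.48 among the lower. Those called higher, named after their values were seen, included Eomes at 0.58, and the highest value of the list was 0.58. Radial glia had 1 lower and 3 higher of 11 (median −0.04), with Vim at 0.97, and the oligodendrocyte lineage 1 lower and 1 higher of 11 (median 0.07), with Cspg4 at 0.32. Nr2e1 was the single telencephalic gene called among 7, at −0.20 (limma adjusted p = 0.0459), and its call was lost when any replicate was left out and with the replicate block (limma adjusted p = 0.0627). Cspg4 was not called without replicate 3 (0.21, limma adjusted p = 0.0873).

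Genes whose ratios over the 12 arrays were most like those of Prokr2 were H4c11, Nol4l, Epb41, Etv1 and Ubash3b, with Pearson r of 0.96, 0.94, 0.94, 0.94 and 0.94 among 14329 genes. For the bright Sp8 probe they were Sox11, Brcc3, Flrt3, Etv1 and Efnb2, with r of 0.95, 0.92, 0.92, 0.91 and 0.91. Prokr2 and this Sp8 probe had an r of 0.91 with each other. Within the 8 arrays of the treatments it was 0.53, and for Sp8 and Dlx1 it went from 0.87 over 12 arrays to 0.05 over these 8. Not all pairs dropped this far. Over these 8 arrays the 5 genes named for Prokr2 had r of 0.76 to 0.97 with it, and those named for Sp8 had 0.30 to 0.76. For Sp8 and Dlx5 r went from 0.88 to 0.76, and for Prokr2 and Gad2 from −0.21 to 0.79. These correlations are a description with no test. The arrays fall into those with and without WT, and those of each comparison share dyes and untreated samples.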

How the data were processed

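RNA (100 ng) was labelled with Cy3 and Cy5 and hybridised to 12 Agilent mouse arrays. Per the file headers, Feature Extraction 11.0.1.1 gave median intensity and local background per spot, processed intensity, above-background flags and log10 ratios. A table of log2 ratios, with normalization not stated, was deposited by the authors as well. Its columns had medians of −0.163 to 0.0359.

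Median signals were background corrected (limma 3.58.1 in R 4.3.3, normexp, offset 50) and loess normalised (span 0.3), leaving out 3671 control spots. Levels were further scaled between arrays (Aquantile). Probes well above background for a condition on at least 3 of 4 arrays of a comparison were taken as expressed. For every comparison, one model over all arrays held a mean and a dye effect, with 6 residual degrees of freedom and Benjamini-Hochberg adjustment over 29361 probes. The SE of a mean ratio came from this model, with the spread pooled over the comparisons and moderated across probes. The code was tested on simulated data. Median signals were 63 to 117.5, and 51.2% to 60.3% of spots were well above background, with 4 arrays per comparison limiting precision. Same-dye arrays correlated at 0.24 to 0.61, and arrays of opposite dye at −0.32 to −0.11 for BK_APP, −0.32 to −0.19 for HOE_APP and 0.24 to 0.46 for APP_WT versus WT. Ratios of same-numbered BK_APP and HOE_APP arrays deviated together (r of 0.42 to 0.43), while those of APP_WT versus WT deviated the opposite way (−0.51 to −0.20). Whether the same number stands for paired samples was not tested. APP_WT versus WT was on one slide and both treatments on another, so that slide and comparison cannot be told apart.

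Members and lists were chosen with earlier results of these data known. Named were all member probes, per ventral list up to 4 called genes by smallest p with 16 set genes, up to 2 genes per list of other cells, and the 5 genes most like Prokr2 and Sp8. Alternatives were median centring, processed intensity, the deposited table, other filters, no dye coefficient, separate models, a replicate block, leaving out each replicate, and SAM with rank products. Differences within BK_APP and HOE_APP pairs were added after seeing the data. Some genes that this rule names are not reported here.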

Additional observations from a re-analysis of the deposited data

Results flagged for a closer look

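Sp9 was below 0 on all 4 BK_APP arrays and above 0 on all 4 HOE_APP arrays, and the difference BK_APP minus HOE_APP was −0.155 on the log2 scale. Tested in the same model, this difference had an unadjusted p of 0.119 and a limma adjusted p of 1.00. Within pairs of the same replicate number, a fit chosen after seeing the data, it had an unadjusted p of 0.0308 and a limma adjusted p of 0.546, so that it passed in neither. Both its size and the opposite signs rest on the likely orientation of the HOE_APP arrays, since with those arrays turned the difference was 0.00091. Of 30 groups of 4 ratios, from 10 probes in 3 comparisons, 0 held an array that stood apart by Dixon's test for a single far value, where chance gives about 1 in 20.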

How the results depend on the processing

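In APP_WT versus WT none of the 7 tested members changed direction over 12 other settings, and 65 of their 84 values kept the call and 19 lost it. The dim Sp8 probe, not tested, was at −0.56 with processed signals and with the deposited table. Of 7 members called, 3 remained in number with separate models and 4 to 5 on leaving out a replicate (4 without replicate 3). Calls over all probes were 2371 with separate models, 2741 with SAM and rank products and 3772 to 5550 on leaving out a replicate. Separate models gave limma adjusted p of 0.134 for Sp9, 0.0836 for Dlx6, 0.115 for Gad1 and 0.0744 for Gad2. Without dye coefficients Gad1 had 0.0537 and Gad2 0.149, and Dlx6 had 0.117 with processed signals and 0.0998 with the deposited table. Of 540 values of 45 list genes, 507 kept their call, 29 lost it and 4 gained it.

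In BK_APP, SAM and rank products called 386 probes, and leaving out a replicate 0 to 62 (62 without replicate 1, 2 without replicate 2 or 4). In HOE_APP they called 488 probes, 1 of them a member, and leaving out a replicate 0 to 9 (9 without replicate 4). Signs near 0 turned in 5 of 120 BK_APP and 16 of 120 HOE_APP values, none of them called, and the cause was not tested. In BK_APP, Dlx2 was 0.0421 with median centring and −0.0786 to 0.00416 on leaving out a replicate, and Dlx5 was 0.0461 with median centring and −0.0724 to 0.0616 on leaving out a replicate. In HOE_APP, median centring gave 0.116 for Dlx2, 0.0755 for Dlx5, 0.0160 for Dlx6, 0.113 for Gad1 and 0.0418 for Gad2. There Dlx1 was −0.00634 with processed signals, −0.00638 with the deposited table. On leaving out a replicate, the range was −0.0543 to 0.0744 for the dim Sp8 probe, −0.0306 to 0.0475 for Dlx1, −0.0597 to 0.0241 for Dlx2, −0.102 to 0.0437 for Dlx5, −0.142 to 0.0131 for Dlx6 and −0.0754 to 0.0473 for Gad1. With the replicate block 7 members and 4170 probes were called in APP_WT versus WT and 0 in BK_APP and HOE_APP, and it changed no call of a member. In BK_APP minus HOE_APP 0 members were called with the block, with the HOE_APP arrays turned, or within pairs (added after seeing the data), where 0 of all probes were called and 2517 had an unadjusted p below 0.05. Signal over background limits the dim Sp8 probe and Dlx6.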
